A study of Mus musculus with 6 samples.

Results

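The Notch pathway was examined through 10 of its genes in mouse pancreatic acini that had spent 3 days in an ex vivo assay of acinar-to-ductal metaplasia (ADM), in which explanted acini lose their secretory form and become duct-like. The genes were the receptors Notch1, Notch2 and Notch3, the ligands Jag1 and Jag2, the DNA-binding effector Rbpj, and the targets Hes1, Hey1, Heyl and Nrarp. They were chosen by name from the 56953 genes of the deposited count table. All 10 were found, and all 10 passed the filter on low counts that left 14738 genes for testing.

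Bulk RNA-seq had been performed on 6 libraries, 2 in each of 3 groups. WT acini carried intact Dkk3 and received no treatment (labelled 10 and 11 weeks of age). DD acini came from mice homozygous for a Dkk3 knockout allele and were likewise untreated (12 and 13 weeks), and DD + rDKK3 acini had the same genotype and received recombinant soluble DKK3 (14 and 15 weeks). DKK3 is a secreted glycoprotein, and the knockout allele replaces the exon that encodes its signal sequence in every cell of the mouse, so acini and any co-isolated stromal cells lacked it alike. All cultures were embedded in Matrigel and kept in Waymouth medium with serum, trypsin inhibitor and dexamethasone, a glucocorticoid, in all groups. Age rose with group in the labels and cannot be told apart from it. Each library was labelled with an age of its own, so that replicates, if the ages are right, came from different animals. The labels identified no animal or culture, and the p-values measure only the spread between these libraries.

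Notch receptors are single-pass membrane proteins that are activated by ligands on a neighbouring cell. Ligand pulling exposes the receptor to cleavage, and the released intracellular domain enters the nucleus, joins RBPJ on DNA and turns a repressor complex into an activator. In the pancreas the pathway is known for holding embryonic progenitors undifferentiated, through HES1 above all, and for being active again in adult acini during ADM. Transcript levels of the receptors do not measure this cleavage, which leaves the targets as the nearest readout of pathway output in RNA.

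The promoter of Hes1 is shown because RBPJ is known to act there. RBPJ binds the core TGGGAA, in its longer form GTGGGAA, which contains it. The 250 bases before the canonical start (GRCm39, GENCODE M39) were searched on both strands. Hes1 held GTGGGAA and, downstream of it, a separate TGGGAA. Rbpj held TGGGAA alone, on the reverse strand. The windows of Heyl and Nrarp, of the 3 receptors and of both Jagged ligands held neither. Among 21664 windows of the same length before protein-coding genes, 5.46% held GTGGGAA and 22.8% held TGGGAA on either strand, so a match alone is common. The capitals mark the matches, and the stretch is written 5′ to 3′ along the gene's own strand.
Hes1, chr16:29884057-29884117, plus strand: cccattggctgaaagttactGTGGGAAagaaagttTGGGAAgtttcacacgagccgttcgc
The matches lay 50 to 44 and 35 to 30 bases before the start, in the same orientation. These are matches of letters only and no binding was measured.

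The library totals were lowest in WT, at 12018473 and 14398015 counts, and ran from 16234731 to 19750401 in the other 4 libraries. Values are given as CPM, counts scaled to library depth with TMM factors, for which 3 counts corresponded to 0.142 to 0.295 CPM. The targeted gene did not check the labels, since Dkk3 had 1 to 11 counts per library and DD was no lower than WT, and counts summed over a gene cannot show the replaced exon. The paper attributes the similar Dkk3 levels to an intracellular isoform, Dkk3b. It reports, from exon-specific PCR, that transcripts with the replaced exon were lost in DD acini. WT 2 was labelled female and alone held Xist counts (16), but its summed CPM over 4 Y-linked genes was 141, against 119 to 147 in the libraries labelled male. Exocrine identity was plain, with 12 acinar markers summing to 92030 to 158961 CPM and none at 0. On principal components of all genes, DD 2 and DD + rDKK3 2 lay apart from the rest on the first axis (42.26% of variance) and WT 1 on the second (32.32%). Estimates of the members below are therefore also given without WT 1 or DD 2 where those libraries decide them.

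Hes1 was by far the most abundant of the 10 transcripts per length. HES1 is a basic helix-loop-helix repressor and the best-known Notch target. Divided by the total length of annotated exons, its median over the 6 libraries was 14.9 CPM per kb, with a range of 5.85 to 15.8. It exceeded the next gene, Jag1, at a median of 2.24 CPM per kb (1.71 to 2.52), in 6 of 6 libraries, and the ranges did not overlap. Within the summed CPM per kb of the 4 targets, Hes1 made up 63.8% in WT 1 and 80.6% to 87.6% in the other 5 libraries.

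Behind Hes1 the levels formed a continuous series. The medians were 2.02 CPM per kb for Heyl, 1.23 for Notch1, 1.06 for Rbpj, 0.998 for Notch2, 0.665 for Nrarp, 0.529 for Jag2, 0.526 for Notch3 and 0.36 for Hey1. From Jag1 down, each gene's range over the libraries overlapped that of its neighbour, so neighbours in this order did not differ beyond their spread. Some neighbours were nonetheless ordered alike in every library, with Heyl above Notch1 and Nrarp above Jag2 in 6 of 6. The order depended on the length used. With the length of the canonical transcript alone, Rbpj rose from rank 5 to rank 2, at 2.5 CPM per kb, and Hes1 remained first at 32.8.

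**Figure D1:**
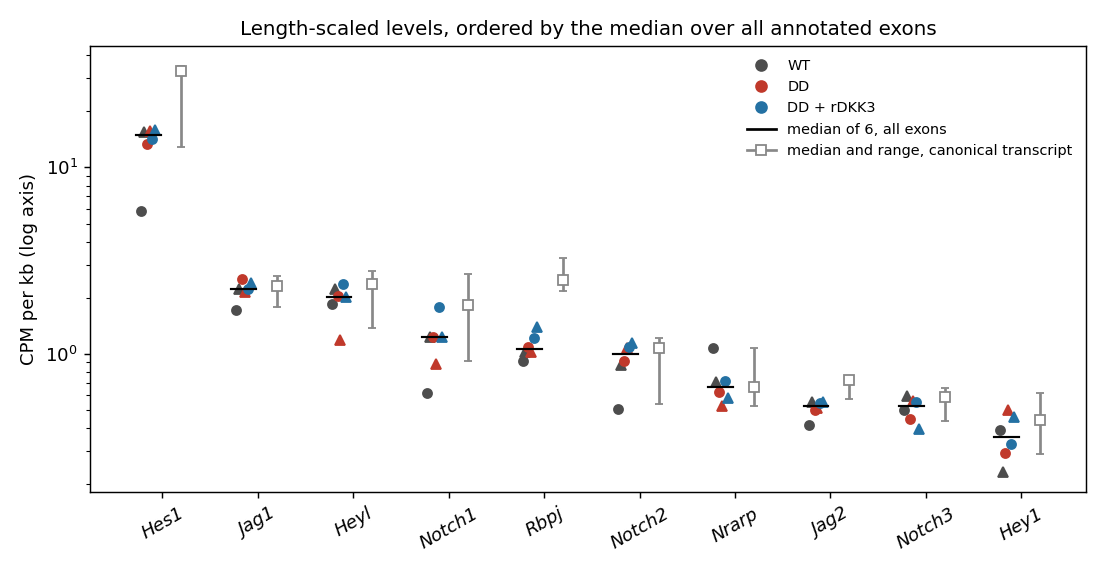
Length-scaled level of each gene in CPM per kb on a log axis, ordered by the median over all annotated exons. Filled points are the 6 libraries (circles, replicate 1; triangles, replicate 2), black lines their medians, and open squares with bars give the median and range with the canonical transcript's length; Hes1 stands clear of the other 9 genes on both lengths, and its lowest point, 5.85, is WT 1.

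Among the receptors, Notch1 varied most. Notch1 (ENSMUSG00000026923.16, GRCm39 chr2:26347915-26406675, minus strand, 34 exons in the canonical transcript) was at 8.74 and 17.5 CPM in WT, 17.5 and 12.6 for DD and 25.4 and 17.6 for DD + rDKK3. These levels rested on 89 to 481 counts. WT 1 was the lowest library and DD + rDKK3 1 the highest, a span of 2.91-fold. The WT and DD ranges overlapped, and both DD + rDKK3 libraries lay above all DD and WT libraries, although DD + rDKK3 2, WT 2 and DD 1 were nearly equal (the counting interval of DD + rDKK3 2 was 15.8 to 19.7 CPM).

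Notch2 was ordered by group. Notch2 (ENSMUSG00000027878.12, chr3:97920843-98057677, plus strand, 34 exons) had 5.7 and 9.76 CPM in WT, 10.3 and 12.2 for DD and 12.3 and 12.8 for DD + rDKK3. Each group lay above the one before it without overlap, but the steps from WT 2 to DD 1 and from DD 2 to DD + rDKK3 1 were inside the counting error. WT 1 was again the lowest library.

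Notch3, a receptor known for its role in vascular smooth muscle and pericytes, was lower and flat. Notch3 (ENSMUSG00000038146.9, chr17:32339794-32385826, minus strand, 33 exons) had 4.52 and 5.34 CPM in WT, 4.02 and 5.06 for DD and 4.96 and 3.55 for DD + rDKK3. The groups overlapped in every pairing and the highest library was 1.5-fold the lowest. The fourth receptor, Notch4, an endothelial gene taken from the wider pathway list, was at 4.03 to 9.52 CPM with its lowest value in WT 1.

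The ligands spanned the smallest ranges of the 10 genes, 1.47-fold for Jag1 and 1.33-fold for Jag2 from the lowest to the highest library. JAG1 and JAG2 are the Serrate-type ligands, and Jag1 was 4.02 to 5.04 times as abundant as Jag2 per kb in every library. Jag1 (ENSMUSG00000027276.8, chr2:136923376-136958564, minus strand, 26 exons) was at 10.2 and 13.3 CPM in WT, 15.0 and 12.9 for DD and 13.4 and 14.4 for DD + rDKK3. Jag2 (ENSMUSG00000002799.7, chr12:112871439-112893396, minus strand, 26 exons) was at 2.95 and 3.93 CPM in WT, 3.55 and 3.64 for DD and 3.86 and 3.93 for DD + rDKK3. For both ligands WT 1 was the lowest library, and without it the other 5 were tightly grouped. Of the Delta-type ligands, Dll4 had a median of 0.566 CPM per kb, close to the 0.529 of Jag2, on 12 to 53 counts per library. Dll1 was lower, at a median of 0.255 CPM per kb on 11 to 24 counts, and Dll3 had at most 1 count.

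Rbpj, the common DNA-binding partner of all cleaved Notch receptors, is also required in its own right for early pancreatic growth within the PTF1 complex. Rbpj (ENSMUSG00000039191.13, chr5:53623494-53814704, plus strand, 11 exons) was at 11.8 and 13.1 CPM in WT, 14.1 and 13.2 for DD and 15.5 and 17.9 for DD + rDKK3. The 3 groups did not overlap, yet WT 2 and DD 2 were nearly equal. Of its processed pseudogenes, Rbpj-ps1 had 0 counts and Rbpj-ps3 had 3 in all. Rbpjl, the paralogue that replaces RBPJ in the PTF1 complex of mature acini, exceeded Rbpj by 2.83 to 4.52 times per kb in the 6 libraries, lowest in DD + rDKK3 2 and highest in DD 1. The size of this ratio depends on the length used, 12849 bases of annotated exons for Rbpj against 5440 in its canonical transcript. In plain CPM, Rbpjl was at 21.8 to 33.1 and Rbpj at 11.8 to 17.9.

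The targets did not move as a block. Hes1 (ENSMUSG00000022528.9, chr16:29883202-29886614, plus strand, 4 exons) was at 19.7 and 52.4 CPM in WT, 45.3 and 52.7 for DD and 47.9 and 53.3 for DD + rDKK3. The WT value of 19.7, from 201 counts, had a 95% Poisson interval of 17.1 to 22.7, and the other 5 libraries lay between 45.3 and 53.3. WT 1 thus stood apart from every other library, including its own replicate, whereas WT 2 fell within the range of the DD and DD + rDKK3 libraries.

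Heyl, a HEY-family repressor, had its single low value in another library. Heyl (ENSMUSG00000032744.5, chr4:123127349-123143668, plus strand, 5 exons) was at 9.82 and 11.7 CPM in WT, 10.8 and 6.29 for DD and 12.6 and 10.6 for DD + rDKK3. DD 2 was the lowest and its interval, 5.16 to 7.6 CPM, lay below those of the other 5. The groups overlapped in every pairing.

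Hey1 and Nrarp were near the lower end of what could be measured. HEY1 is the second HEY-family repressor, and NRARP is a small ankyrin-repeat protein that is induced by Notch and destabilises the active complex. Hey1 (ENSMUSG00000040289.9, chr3:8728419-8732316, minus strand, 5 exons) had 1.87 and 1.12 CPM in WT, 1.42 and 2.41 for DD and 1.58 and 2.21 for DD + rDKK3, on 16 to 41 counts. Nrarp (ENSMUSG00000078202.4, chr2:25070770-25073351, plus strand, 1 exon) had 2.75 and 1.83 CPM in WT, 1.61 and 1.35 for DD and 1.85 and 1.51 for DD + rDKK3, on 23 to 35 counts. Nrarp ran opposite to Hes1 in the WT libraries, with its highest level in WT 1. Its counting intervals in WT 1 (1.83 to 3.98 CPM) and WT 2 (1.19 to 2.68 CPM) overlapped. In DD 2, Hey1 was at its highest and Heyl at its lowest, so that their ratio per kb was 0.422 there and 0.105 to 0.229 elsewhere.

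**Figure D2:**
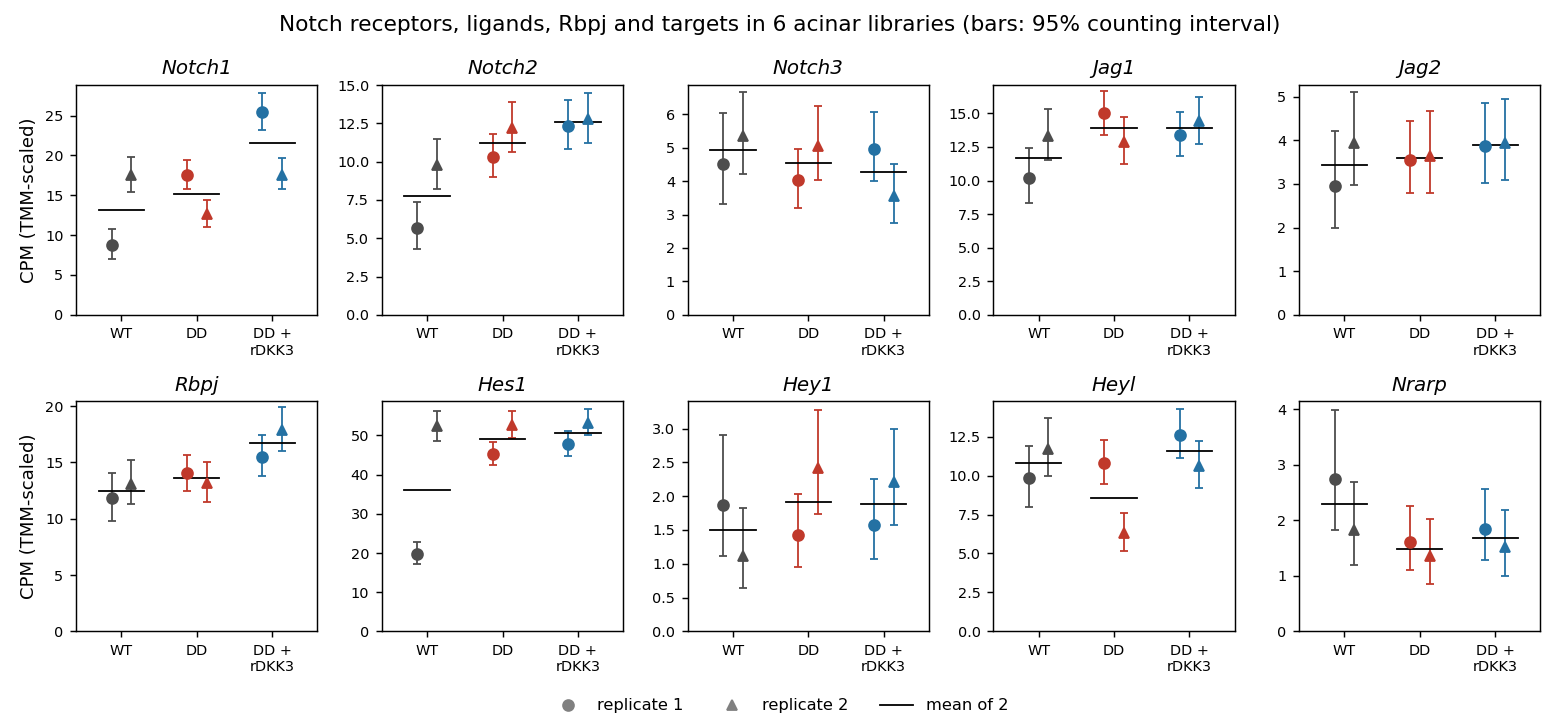
Level of each of the 10 genes in CPM (linear axes from 0) in the WT, DD and DD + rDKK3 libraries, with exact 95% Poisson intervals as bars and the mean of 2 libraries as a line. The WT 1 point is far below the rest for Hes1 and lowest also for Notch1, Notch2, Jag1, Jag2 and Rbpj, while Heyl is lowest in DD 2.

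The comparison of DD with WT asked whether loss of DKK3 changed these genes. In the edgeR quasi-likelihood test, 0 of 10 members were called at a Benjamini-Hochberg adjusted p under 0.05, a threshold that 0.0407% of the 14738 genes passed. At an unadjusted p under 0.05 it was again 0 of 10, against 8.26% of all genes, and DESeq2 called 0 as well. Without WT 2 the unadjusted count was 2 (Notch2 and Hes1), without DD 1 it was 1 (Heyl), and without WT 1 it was 0. Notch2 had the smallest p. It went from 7.73 ± 2.87 CPM in WT to 11.2 ± 1.31 in DD (SD, n = 2 each), a log2 fold change of 0.53 (SE 0.267, 95% interval -0.09 to 1.15, adjusted p 0.586 in the edgeR fit). Without WT 1 the difference was 0.22.

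Hes1 averaged 36.1 ± 23.1 CPM in WT and 49.0 ± 5.23 in DD, a log2 fold change of 0.43 (SE 0.376, interval -0.44 to 1.31, adjusted p 0.673). The WT replicates differed from each other by more than the group means did. The estimate was -0.08 without WT 1 and 1.32 without WT 2, so the direction of Hes1 rested on which WT library was used. Nrarp showed the most negative estimate, from 2.29 ± 0.654 to 1.48 ± 0.182 CPM (log2 fold change -0.61, SE 0.377, interval -1.49 to 0.26, adjusted p 0.599). Without WT 1 it was -0.28, and Heyl was then the more negative, at -0.44. The Heyl estimate rested on its low library, since without DD 2 it was -0.0006.

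The remaining 7 members had log2 fold changes between -0.33 for Heyl and 0.37 for Hey1. In all, 7 of 10 members had an estimate above 0, against 51.7% of all genes, and the median was 0.16 against 0.0164. Without overlap between groups, 2 members were higher in DD (Notch2 and Rbpj) and 1 lower (Nrarp), where 18.1% and 19.7% of all genes were, 37.8% together. Each interval spanned 0. That of Rbpj was the narrowest of the 10, from -0.29 to 0.54, and that of Hey1 the widest, from -0.68 to 1.42.

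Whether returning the protein changed the genes in null acini was asked by comparing DD + rDKK3 with DD. None of the 10 was called by edgeR (0% of all genes were; DESeq2 called 11 genes, no member). At an unadjusted p under 0.05 it was 0 of 10, against 1.98% of all genes, 0.597% higher and 1.38% lower. DESeq2 gave an adjusted p to 1 member only, Hes1, because its own filter set the other 9 aside. Notch1 had the largest estimate, from 15.1 ± 3.44 CPM in DD to 21.5 ± 5.49 in DD + rDKK3 (log2 fold change 0.51, SE 0.339, interval -0.28 to 1.3, adjusted p 1). It ranged from 0.21 without DD + rDKK3 1 to 0.75 without DD 1 or DD + rDKK3 2. Heyl followed at 0.44 (SE 0.276, interval -0.2 to 1.08), from 8.54 ± 3.18 to 11.6 ± 1.4 CPM. Heyl turned on the single low library, since without DD 2 the estimate was 0.11.

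Rbpj was 0.29 higher on the log2 scale (SE 0.175, interval -0.11 to 0.7), from 13.6 ± 0.627 to 16.7 ± 1.65 CPM. The others lay between -0.09 for Notch3 and 0.18 for Nrarp, with Hes1 at 0.05 (interval -0.82 to 0.91). Here 4 members were higher without overlap (Notch1, Notch2, Jag2 and Rbpj) and 0 lower, against 15.1% and 14.4% of all genes, 29.5% together. The estimate was above 0 for 7 of 10, against 49.5%, with a median of 0.135 against -0.00282.

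DD + rDKK3 was also compared with WT. This comparison shares its WT libraries with the first and its treated libraries with the second, and adds no independent samples. No member was called (0.0475% of all genes were), and DESeq2 called 0, with an adjusted p for Hes1 alone. At an unadjusted p under 0.05 in the edgeR fit, 2 of 10 members were higher, against 7.34% of all genes higher and 15.3% in either direction. At that threshold, DESeq2 and a fit with replicate number as a block each gave Notch2 alone. The fit without the low-count filter gave Notch1, Notch2 and Hes1. The 2 members of the main fit were Notch2, at 7.73 ± 2.87 and 12.6 ± 0.35 CPM (log2 fold change 0.69, SE 0.267, interval 0.07 to 1.31, adjusted p 0.321), and Rbpj, at 12.5 ± 0.952 and 16.7 ± 1.65 CPM (0.42, SE 0.178, interval 0.01 to 0.83, adjusted p 0.324). Without WT 1 they were 0.38 and 0.36, and 0 members had an unadjusted p under 0.05. Without WT 2 there were 4 (Notch1, Notch2, Rbpj and Hes1), of which 0 were called.

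Notch1 had a log2 fold change of 0.70 (SE 0.345, interval -0.1 to 1.51, adjusted p 0.349), from 13.1 ± 6.18 to 21.5 ± 5.49 CPM, and fell to 0.32 without WT 1. It was the 1 member whose call depended on the filter, with an adjusted p of 0.0465 when genes of low count were kept in the fit. Hes1 was at 0.48 (interval -0.4 to 1.35) and at -0.03 without WT 1. Without overlap, 4 members were higher (Notch1, Notch2, Jag1 and Rbpj) and 0 lower, where 27.9% and 27.1% of all genes were, 55% together. The estimate was above 0 for 8 of 10, against 51.6%, with a median of 0.295 against 0.0171.

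**Figure D3:**
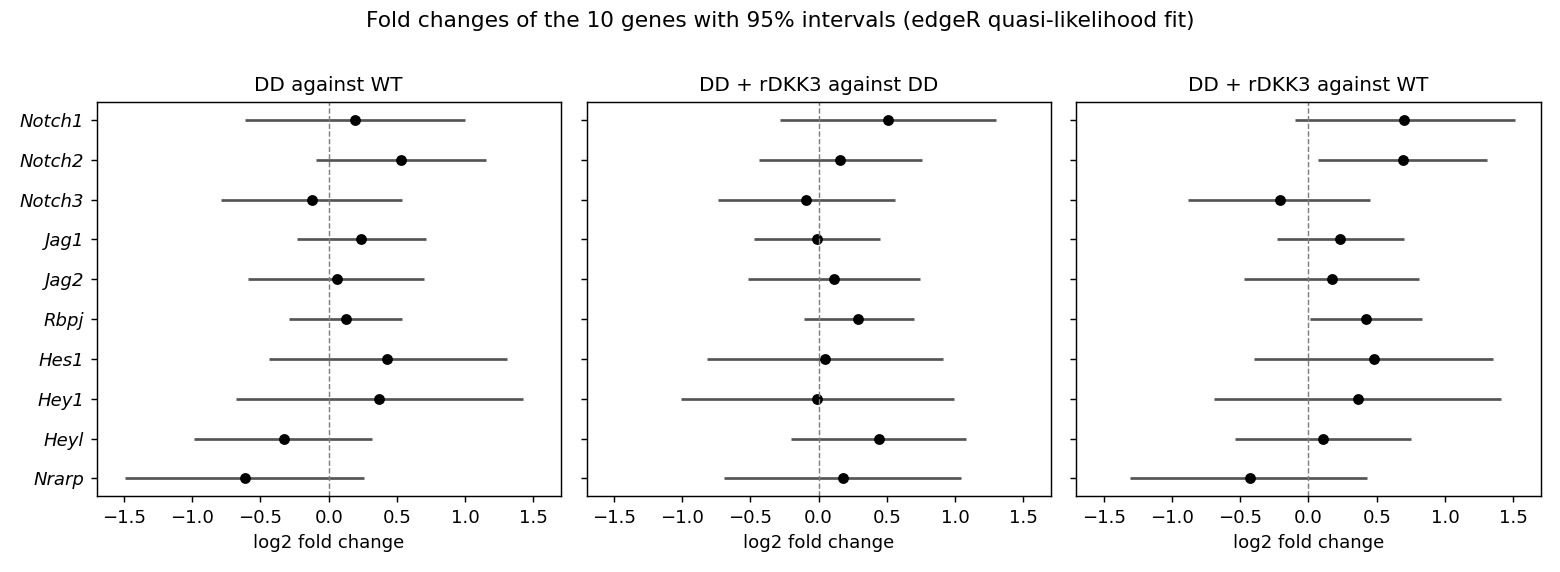
Log2 fold change of each gene in the 3 comparisons, with 95% intervals from the edgeR quasi-likelihood fit (points, estimates; bars, intervals; dashed line, no difference). Intervals cross 0 for all 10 genes in DD against WT and DD + rDKK3 against DD, and lie above 0 for Notch2 and Rbpj in DD + rDKK3 against WT.

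WT 1 bears on most of these estimates. It was the lowest of the 6 libraries for 6 of 10 members (Notch1, Notch2, Jag1, Jag2, Rbpj and Hes1), while it was the lowest for 30.5% of all genes tested. It lay at least 1 log2 unit below every other library for Hes1, as it did for 217 genes (1.47%). Long genes were low in this library as a class. Genes were set into 4 classes of equal size by exon length, and log2 CPM was centred on each gene's mean over the libraries. In WT 1 the median of the longest class (8810 bases or more) minus that of the shortest (3334 or less) was -0.418, where the same difference ranged from -0.0972 to 0.195 in the other 5. Notch1, Notch2, Notch3 and Rbpj belong to the longest class, whereas Hes1, at 3376 bases, does not. WT 1 also had the fewest counts. The part of length or depth in the receptor and Rbpj values was not tested.

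The cell types present were examined because several members are known from vessels and stroma as well as epithelium. The summed CPM of 10 ductal markers was 1952 to 2543 in WT, 1845 to 2793 in DD and 1776 to 1948 in DD + rDKK3, led by Spp1 and Krt19. The 10 endothelial markers summed to 119 to 185, 131 to 190 and 142 to 169 CPM in the same order, and the 11 mural markers, of which 10 passed the filter, to 27.8 to 46.8, 26.2 to 64.9 and 30.8 to 63.6. Within each group, the lower endothelial and mural sums were in the libraries numbered 1.

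Stromal cells differed far more. The 11 fibroblast and stellate markers summed to 170 to 263 CPM in WT, 161 to 1238 in DD and 281 to 1236 in DD + rDKK3, with the upper values in DD 2 and DD + rDKK3 2. The 8 macrophage markers ran from 58.5 to 126, 69.1 to 245 and 84.9 to 189 CPM, again highest in the libraries numbered 2 of the DD and DD + rDKK3 groups. No marker in any of these lists was at 0 in all libraries. Schwann cell markers were at 1.19 CPM or less in sum, and 0 of 5 passed the filter. DD 2, with the highest fibroblast sum, was the library of lowest Heyl and Nrarp and highest Hey1. DD + rDKK3 2, with nearly the same sum, had the next highest Hey1 (2.21 CPM) and the next lowest Nrarp (1.51 CPM). Its Heyl, at 10.6 CPM, lay within the range of the other libraries. Notch3 had its lowest value, 3.55 CPM, in DD + rDKK3 2, where the mural sum was 63.6. In DD 2, with the highest mural sum (64.9), it was at 5.06 CPM. Its highest value, 5.34 CPM, was in WT 2, where that sum was 46.8. In bulk RNA, fewer cells of a type and less RNA per cell cannot be told apart, and the part of cell composition in the members' values was not tested.

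The wider pathway was described by 64 further genes, of which 57 passed the filter. The 7 that did not were Dll3, Dlk1, Dlk2, Hes2, Hes3, Hes5 and Hey2, and Hes3 and Hes5 had 0 counts in all libraries. Hes1, Hey1 and Heyl were thus, with Hes6 and Hes7, the members of the HES and HEY family that could be tested. None of the 57 was called in any of the 3 comparisons by edgeR. At an unadjusted p under 0.05, 3 were higher and 1 lower in DD against WT (backgrounds 4.27% and 3.99% of all genes). It was 0 in DD + rDKK3 against DD, and 11 higher and 1 lower in DD + rDKK3 against WT (backgrounds 7.34% and 8%). DESeq2 called 0, 0 and 1, but its own filter left an adjusted p for only 15200, 5951 and 5951 genes. Pathway genes that this filter set aside could not be called. The median log2 fold changes were 0.11, 0.07 and 0.23, and estimates were above 0 for 38, 40 and 40 of 57, against 51.7%, 49.5% and 51.6% of all genes.

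Among the genes with the smallest p in DD against WT were Furin, the protease that makes the first cut of the Notch receptor in the Golgi, Poglut1, which adds O-glucose to its EGF repeats, and the endocytic Notch antagonist Numb. Furin was at 113 and 119 CPM in WT, 156 and 170 for DD and 151 and 174 for DD + rDKK3 (log2 fold change 0.49 in DD against WT, SE 0.16, interval 0.12 to 0.86, adjusted p 0.586). Poglut1 was the 1 lower gene, at 46.8 and 35.5 CPM in WT, 30.7 and 31.2 for DD and 30.8 and 28.7 for DD + rDKK3 (-0.41, SE 0.17, adjusted p 0.586). Both DD groups lay on the same side of WT for these 2 genes, and their estimates in DD + rDKK3 against DD were -0.01 and -0.05. Numb had 0.47 in DD against WT.

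In DD + rDKK3 against WT, the acetyltransferase Ep300, a coactivator of the Notch complex, had a log2 fold change of 0.81 (SE 0.268, interval 0.19 to 1.43, adjusted p 0.321 by edgeR). Aak1, an endocytic kinase, had 0.66 (SE 0.246, interval 0.08 to 1.23, adjusted p 0.321). Ep300 was at 14.1 and 26.3 CPM in WT, 30.8 and 26.6 for DD and 34.9 and 36.5 for DD + rDKK3. Aak1 was at 39.3 and 61.6, 79.1 and 56.7, and 79.6 and 79.9 CPM in the same order. Both genes were lowest in WT 1, and their estimates without that library are not reported here.

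Ptf1a, the acinar transcription factor that holds RBPJ or RBPJL in the PTF1 complex, was at 119 and 220 CPM in WT, 242 and 209 for DD and 264 and 285 for DD + rDKK3. Like Notch1, Notch2 and Hes1, it was lowest in WT 1. Its log2 fold changes were 0.41 in DD against WT, 0.28 in DD + rDKK3 against DD and 0.70 in DD + rDKK3 against WT (SE 0.278, 0.277 and 0.279), with adjusted p values of 0.612, 1 and 0.321. Rbpjl differed little, at 0.11, 0.01 and 0.12. Of the remaining receptor and ligands, Notch4 was at 0.57, 0.07 and 0.64, Dll1 at -0.83, 0.07 and -0.76, and Dll4 at -0.11, -0.23 and -0.34, with intervals that spanned 0 throughout.

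Finally, the genes closest in pattern were sought for each member among 11858 genes, by the root mean square difference of log2 CPM after centring over the 6 libraries. The 3 members of widest range were Notch1 (1.53 log2 units), Hes1 (1.43) and Notch2 (1.15). For Hes1 the nearest was Dysf, which encodes a membrane-repair protein, at a difference of 0.0596. Dysf had 2.06 and 4.92 CPM in WT, 4.5 and 5.11 for DD and 4.7 and 5.32 for DD + rDKK3, low in WT 1 alone as Hes1 was. Zfp638 (0.0743) and Ccdc9b (0.0751) came next with the same shape.

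For Notch1 the nearest were Zscan22 (0.0994), 4933404O12Rik (0.101) and Atm (0.11), the DNA-damage kinase, and for Notch2 they were Jade2 (0.0551), Ksr1 (0.0763) and Tln2 (0.0778). Heyl was nearest to Mybph (0.0382), Slc2a5 (0.0584) and Nes (0.0764), the intermediate filament nestin, which had 168 and 231 CPM in WT, 195 and 127 for DD and 234 and 200 for DD + rDKK3. The 10 members were left out of the candidates, so the search could not return a member and does not show whether members resemble each other. These matches rest on 6 libraries, whose depth and composition all genes of a library share, and are given as a description with no test.

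**Figure D4:**
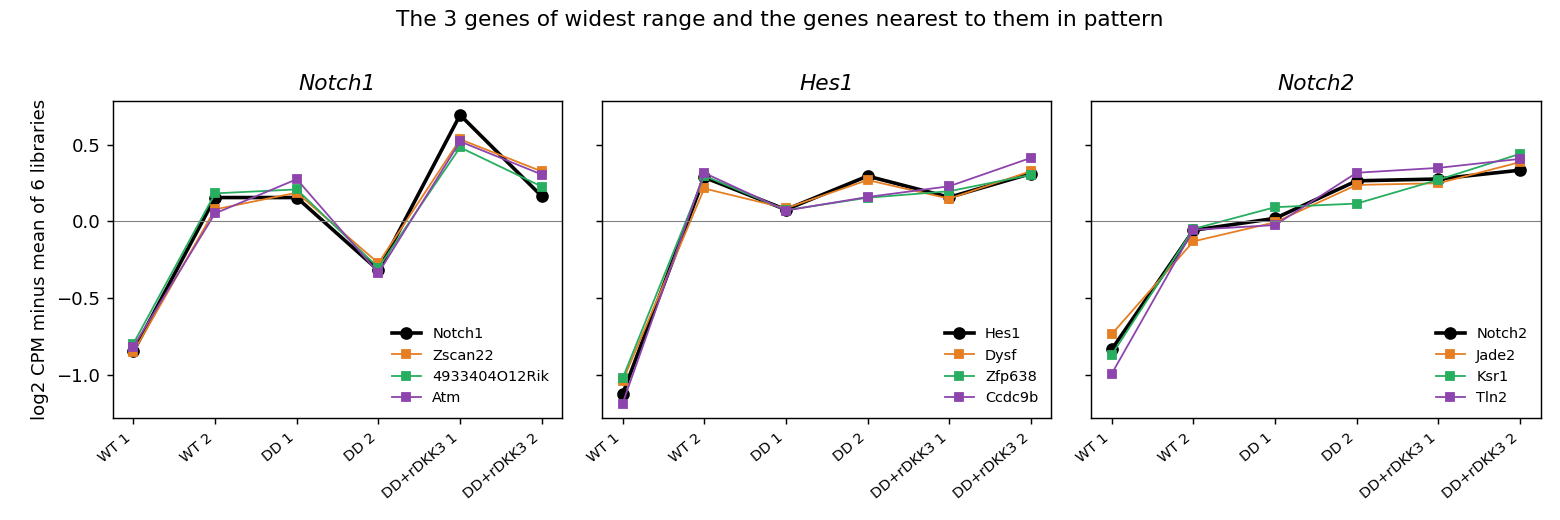
Log2 CPM, centred on each gene's mean over the 6 libraries, of Notch1, Hes1 and Notch2 (black) and of the 3 genes nearest to each (colours) in the 6 libraries, where lines only join the libraries of 1 gene. WT 1 is the lowest library in all 3 panels, and for Hes1 and its nearest genes the other 5 libraries lie close together.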

How the data were processed

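The authors deposited 1 table of raw counts (read pairs per gene, not normalised). Per their methods, strand-specific reads were aligned with STAR 2.7.9a to GRCm39 and counted over exons of basic GENCODE M32 in union mode, then summed per gene, so isoforms cannot be separated. Strand-specific counting keeps apart the antisense transcripts that overlap Notch1, Notch3 and Nrarp. The authors tested with DESeq2 1.38.0.

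From the deposited counts, 92 empty spike-in rows were dropped. edgeR 4.0.16 (R 4.3.3) was used with filterByExpr (minimum count 10, total 15), TMM scaling and the quasi-likelihood F-test (two-sided) on all 6 libraries and 3 groups, with 3 residual degrees of freedom and Benjamini-Hochberg adjustment over 14738 genes. Calls were made at an adjusted p under 0.05. Log2 CPM used a prior count of 2. Intervals of single libraries are exact 95% Poisson intervals and, without molecular identifiers, cover counting error only. Lengths and promoter sequences came from the GRCm39 genome with GENCODE M39. On simulated counts for DD against WT (14547 genes), the test called 42.2% of genes changed by an absolute log2 fold of 1 and 89% of those changed by 2. The changed genes were drawn from those above a mean of 1 CPM. The simulated counts held no shifts shared by many genes of a library, such as those of WT 1, so these shares need not hold for the real counts.

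The members and gene lists were chosen with earlier results of these data known. All members are named, together with Notch4, Dll1, Dll4, Rbpjl, Ptf1a, up to 5 other pathway genes of smallest unadjusted p under 0.05 per comparison, and the 3 genes nearest in pattern. Other genes named were chosen after their values were seen. Alternatives were other scalings, no filter, DESeq2 1.42.0, replicate blocks and leaving out each library. Some results of the pathway list and of the promoter search are not reported here.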

Additional observations from a re-analysis of the deposited data

How the results depend on the processing

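Over 340 combinations of a member, a comparison and an alternative, 319 kept the direction and side of the threshold, 20 turned the direction and 1 (Notch1 without the low-count filter, DD + rDKK3 against WT, 0.74, adjusted p 0.0465) became a call. That made 1 member called there, and 5 other pathway genes (Aak1, Ep300, Ptf1a and Spen among them), with 1 by DESeq2. In each comparison with DD + rDKK3, DESeq2 gave 9 members no adjusted p. Those combinations were judged on direction alone. Over all genes, calls were 6 in DD against WT, 0 in DD + rDKK3 against DD and 7 in DD + rDKK3 against WT. In the same order they were 528, 73 and 788 without the filter and 78, 11 and 58 by DESeq2, and 2 to 6, 0 and 2 to 9 when each library was left out in turn. The cause of these differences was not tested. A left-out library leaves 1 in its group, assumed to vary like the rest.

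With library size as the only scaling, the all-gene median of the log2 fold change became 0.219, -0.0435 and 0.18, and Notch3 became 0.07 in DD against WT. Leaving out libraries in turn gave, in DD against WT, -0.2 to 0.79 for Notch1, -0.3 to 0.06 for Notch3, -0.11 to 0.29 for Jag2, -0.08 to 1.32 for Hes1 and -0.05 to 0.77 for Hey1. In DD + rDKK3 against DD it gave -0.37 to 0.12 for Notch3, -0.11 to 0.08 for Jag1, -0.08 to 0.16 for Hes1 and -0.37 to 0.41 for Hey1. In DD + rDKK3 against WT it gave -0.48 to 0.01 for Notch3, -0.03 to 1.36 for Hes1 and -0.02 to 0.25 for Heyl. Without DD 1, Heyl was at -0.76 in DD against WT and 0.86 in DD + rDKK3 against DD. Without DD 2 these estimates were -0.0006 and 0.11. Median levels moved with the canonical transcript's length to 32.8 CPM per kb for Hes1, 2.5 for Rbpj, 1.84 for Notch1 and 0.726 for Jag2, an alternative chosen after seeing the data.

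Titles repeat the names DD1 and DD2 in the untreated and the rDKK3-treated group, while the labelled ages of such libraries differ and no label names a shared animal, so whether they were paired is not known. Deviations of same-numbered libraries correlated at 0.65 between DD and DD + rDKK3, -0.387 between WT and DD and -0.247 between WT and DD + rDKK3 (across genes). A replicate block gave 7, 0 and 5 calls over all genes and changed no call of a member or other pathway gene. A block within the Dkk3-null libraries gave 0 calls and moved Hey1 to 0.01 in DD + rDKK3 against DD. Crossing the numbers between WT and the other groups, chosen after seeing the data, gave 296 calls in DD against WT and 566 in DD + rDKK3 against WT. With 2 libraries a group and 16 to 41 counts for Hey1 and 23 to 35 for Nrarp, depth limits these genes most.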
